A study of Mus musculus with 6 samples.

Results

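Collagens and laminins are the proteins that form most of the scaffold outside cells, and their mRNAs were followed here in the nucleus accumbens, a reward region of the ventral striatum. The genes were taken by symbol from the authors' deposited table: every record named Col, a number, a and a number, and every record whose name begins with Lama, Lamb or Lamc and a digit. This gave 53 records, 42 collagen chains and 11 laminin chains, of 21540 records in all. Col4a3bp, a lipid transfer protein whose name only starts like a collagen, was left out. The RNA sequencing compared C57BL/6 mice injected with cocaine (20 mg/kg, intraperitoneal, once a day for 7 days) with mice given saline on the same schedule. Both groups were labelled as 4 h into withdrawal, and no genetic change is named for either. There were 3 libraries per group, and the labels do not say whether a library held 1 animal or pooled tissue.

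For each gene and group the table holds a single level in FPKM (fragments per kilobase of transcript, scaled to the library's mapped fragments), with a log2 fold change of cocaine over saline, a p-value and a q-value from the authors' own test. It holds no value per library. No SD, range or overlap between replicates can therefore stand beside the values, each level below is the authors' group value, and the spread behind their p-values is unknown and may be technical. Read depth is also unknown. The labelled tissue was checked against striatal genes: Ppp1r1b, the dopamine-regulated phosphatase inhibitor DARPP-32, stood at 829 and 795 FPKM in saline and cocaine, and the enkephalin precursor Penk at 1531 and 1498 FPKM. Of the 8 medium spiny neuron markers, 7 lay below 0, with a median log2 fold change of -0.03. Over all tested records 59.0% lay below 0, with a median of -0.02. After removal of a trend over GC content and length, 3 of the 8 markers lay below 0, with a median of 0.0070. None of the 8 had a q under 0.05, where 1.23% of all tested records did. Ppp1r1b and Penk had p-values of 0.00508 and 0.0346 in the authors' deposited table. A choroid plexus gene did differ between the groups: Ttr, the thyroid hormone carrier that this tissue makes in bulk, rose from 0.668 FPKM in saline to 10.8 FPKM in cocaine (log2 fold change 4.02, with p and q listed as 0 in the authors' deposited table).

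Collagens are trimers of chains that wind into a triple helix. Type IV collagen and laminins assemble into separate networks that nidogens and perlecan join, and the resulting sheet, the basement membrane, wraps every brain capillary and lies under the pial surface. Laminins are cross-shaped trimers of an alpha, a beta and a gamma chain. Fibrillar collagens such as types I, III and V form the ropes of connective tissue, and in the brain they are known chiefly from the meninges and from fibroblasts around larger vessels. The remaining collagens include the fibril-associated types (FACIT), the network and beaded-filament types, and types that span the cell membrane. In whole tissue, fewer cells of a type and less RNA per cell cannot be told apart.

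None of the 53 genes passed the threshold used here, a deposited q under 0.05. Of all 14959 tested records, 1.23% did. The gene closest to it was Col4a1, a main chain of vascular basement membranes, at 2.82 FPKM in saline and 2.26 FPKM in cocaine (log2 fold change -0.32, p = 0.000558, q = 0.0550 in the authors' deposited table). Both the basement membrane genes and the fibrillar collagens had medians slightly below 0, and these medians lay 0.02 apart.

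The promoters of the type IV pair are shown first, since Col4a1 and its partner Col4a2 are read in opposite directions from the same stretch of DNA, and with them that of Col1a2, the fibrillar collagen with the smallest p. Windows run from 250 bases before to 50 bases after a RefSeq start, from the GRCm38.p6 assembly. That is a later build than the NCBIM37 named in the submitters' processing notes, so the positions belong to the windows only. Each is written 5′ to 3′ on its own gene's strand. Capitals in the first and the second mark the 78 bases that both windows share, read from opposite strands. Capitals in the third mark the letters CCAAT and GGGCGG on either strand.
Col4a1, chr8:11312777-11313076, minus strand: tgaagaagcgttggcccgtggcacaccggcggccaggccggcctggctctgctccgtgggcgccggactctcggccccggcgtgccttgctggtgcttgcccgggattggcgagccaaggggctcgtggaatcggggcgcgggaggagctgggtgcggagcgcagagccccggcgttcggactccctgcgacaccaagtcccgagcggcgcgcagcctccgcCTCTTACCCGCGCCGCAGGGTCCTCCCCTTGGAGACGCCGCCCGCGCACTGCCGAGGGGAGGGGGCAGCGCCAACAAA
Col4a2, chr8:11312555-11312854, plus strand: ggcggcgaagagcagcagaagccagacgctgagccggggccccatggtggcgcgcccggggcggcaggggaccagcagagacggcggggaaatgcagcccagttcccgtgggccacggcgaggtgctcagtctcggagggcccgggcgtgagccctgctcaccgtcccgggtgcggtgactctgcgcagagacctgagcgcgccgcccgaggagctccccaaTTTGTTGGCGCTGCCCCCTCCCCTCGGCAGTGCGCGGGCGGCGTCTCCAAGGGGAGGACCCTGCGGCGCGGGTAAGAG
Col1a2, chr6:4505368-4505667, plus strand: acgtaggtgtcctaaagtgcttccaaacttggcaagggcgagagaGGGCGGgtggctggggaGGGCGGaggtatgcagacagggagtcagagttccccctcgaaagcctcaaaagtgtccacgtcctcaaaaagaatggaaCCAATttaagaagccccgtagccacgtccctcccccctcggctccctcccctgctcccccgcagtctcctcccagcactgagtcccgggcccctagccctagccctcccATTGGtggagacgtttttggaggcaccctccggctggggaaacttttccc

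No other pair among the 39 members with a window (43 windows) overlapped. Windows were matched by symbol, and 14 members had none in the RefSeq table. The X-linked pair Col4a5 and Col4a6, also read in opposite directions, has windows 842 bases apart. Exact letters were searched on both strands: CCAAT, known as the CCAAT box, GGGCGG, known as the GC box, and TATAAA, known as the TATA box. The motifs do not overlap one another in these 3 windows. CCAAT occurred in 14 of 43 member windows (32.6%), against 37.4% of all 32851 windows of the same length. GGGCGG occurred in 25 of 43 (58.1%), against 35.7% of all windows, and in 8 of 14 basement membrane windows and 6 of 8 fibrillar ones. The 14 basement membrane windows come from 12 genes. The only GGGCGG match of the Col4a1 window lies in the bases shared with Col4a2, so the same site counts for both windows. TATAAA occurred in 0 of 14 basement membrane windows and in 2 of 8 fibrillar windows, against 13.6% of all windows. Col4a1, Col4a2 and Col1a2 each hold CCAAT and GGGCGG and lack TATAAA, and the Col4a1 and Col4a2 windows are 74.0% and 73.7% G or C. These are matches of letters and do not show that a factor binds.

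The 53 genes spanned a wide range of levels. The highest was Col6a1, and 23 genes reached 1 FPKM in at least 1 group, all of them tested by the authors. Another 19 were tested at lower levels. The 11 that were not tested, all collagens, reached at most 0.244 FPKM in their higher group, and no gene was listed at 0 in either group.

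**Figure D1:**
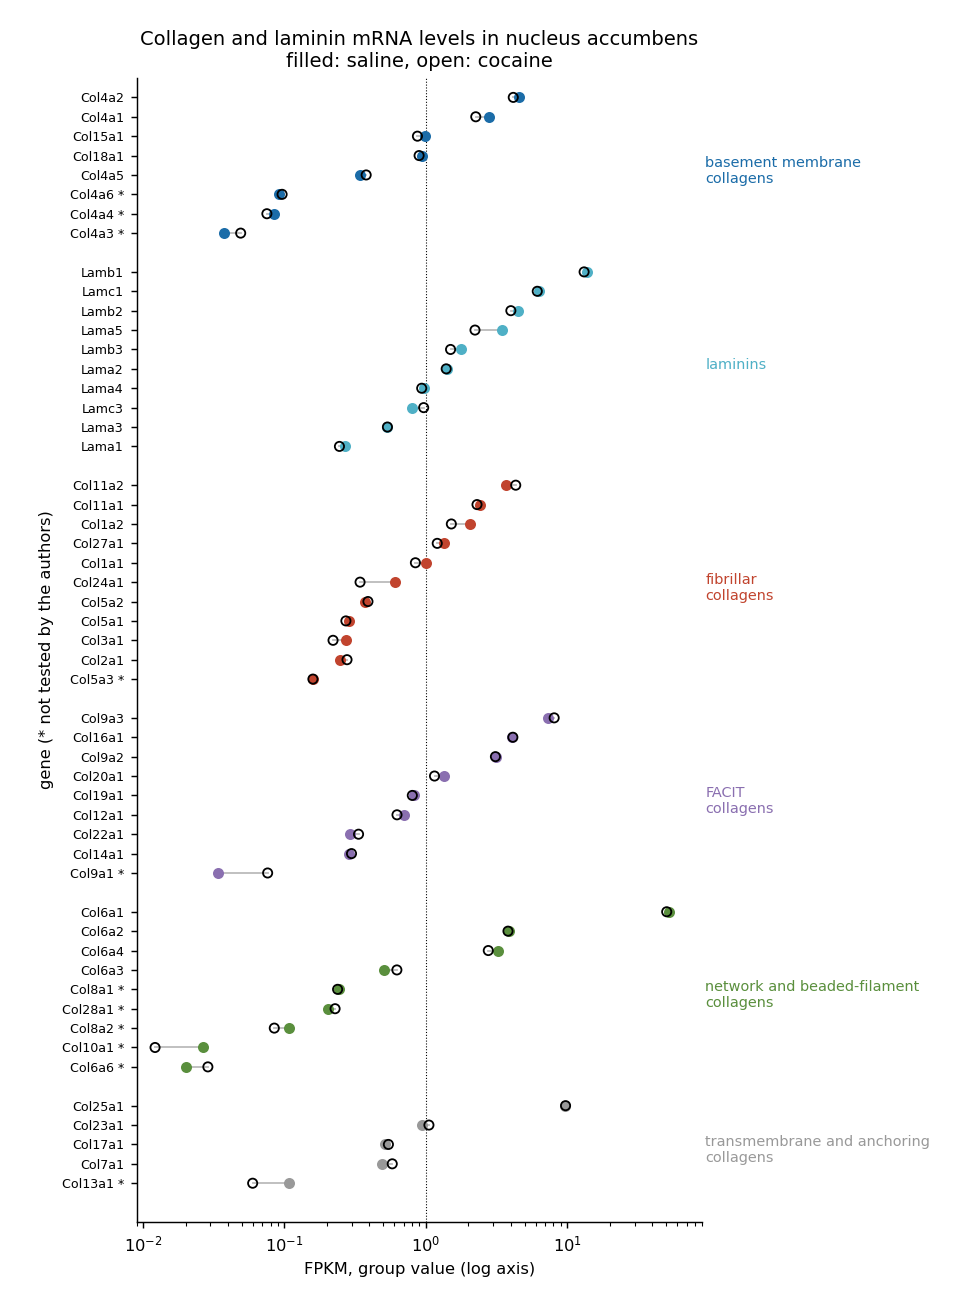
Level of 52 of the 53 collagen and laminin genes in nucleus accumbens, as FPKM on a log axis, by class; filled points are the saline group value, open points the cocaine group value, and an asterisk marks genes the authors did not test. Col6a1 stands far to the right at 52.9 and 50.7 FPKM, most fibrillar collagens lie left of the dotted line at 1 FPKM, and the widest gaps among tested genes belong to Lama5 and Col24a1.

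Of the 42 tested genes, 27 had a log2 fold change below 0 in the authors' deposited table and 15 above. That is 64.3%, against 59.0% of all tested records, so the share lay near the background. Their median was -0.06, beside -0.02 over all tested records. Among genes of at least 1 FPKM, 18 of 23 lay below 0 (78.3%), against 59.2% of tested records at that level. At an unadjusted deposited p under 0.05 there were 3 of the 42, Col4a1, Lamb2 and Col1a2. Over all tested records the share was 5.76%. All 3 had lower group values after cocaine. Most tested records with such a p were also lower, 559 of 861, which is 3.74% of all tested records. Since genes are not replicates of a treatment, these shares carry no test.

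The basement membrane collagens were led by the type IV pair. Col4a1 (ENSMUSG00000031502) and Col4a2 (ENSMUSG00000031503) encode the chains of the most widespread type IV trimer, in which alpha1 chains outnumber alpha2. Col4a2 stood at 4.56 FPKM in saline and 4.16 FPKM in cocaine (log2 fold change -0.13, p = 0.146, the authors' deposited table). Per length, Col4a2 mRNA was 1.62 times as abundant as Col4a1 in saline and 1.84 times in cocaine. Both chains had lower group values after cocaine, and their log2 fold changes differed by 0.19, a difference that group values cannot test.

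By the authors' q of 0.0550 Col4a1 did not pass, and adjustments recomputed here gave smaller values. The authors may have adjusted over more tests than the tested records listed. The recomputed values therefore do not replace the deposited q. Benjamini-Hochberg adjustment of the authors' deposited p-values over the 14959 tested records gave 0.0443 for Col4a1, and 1.33% of those records then passed. Over tested records of at least 1 FPKM it gave 0.0385, with 1.55% passing. At a deposited q under 0.1, Col4a1 was the only one of the 53 to pass, and 1.47% of records did. Lamb2, next in order, reached 0.287 by the first of these adjustments.

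The other type IV chains were scarce. Col4a5, which with Col4a3 and Col4a4 forms the trimer known from kidney filters, stood at 0.340 and 0.379 FPKM (p = 0.822, the authors' deposited table). Col4a3, Col4a4 and Col4a6 lay at or under 0.0964 FPKM and were not tested. Col15a1 and Col18a1 encode collagens that carry sugar chains and sit in vessel basement membranes, Col18a1 being the source of endostatin. Col15a1 stood at 0.985 and 0.874 FPKM and Col18a1 at 0.934 and 0.898 FPKM, with p-values of 0.849 and 0.893 in the authors' deposited table. In all, 4 of the 5 tested basement membrane collagens lay below 0, with a median of -0.13.

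All 11 laminin chains were tested, and 9 lay below 0, with a median of -0.08. Beta chains were more abundant than alpha chains. Summed over the family, alpha chains came to 6.66 FPKM in saline and 5.35 in cocaine, and beta chains to 20.2 and 18.7. The protein holds alpha and beta chains in equal numbers, which these mRNA sums did not match. Lamb1, the commonest beta chain, stood at 13.9 and 13.2 FPKM (p = 0.654, the authors' deposited table), 2.21 times as much per length as Lamc1, the gamma chain it usually pairs with, in saline and 2.14 times in cocaine. Lamc1 stood at 6.31 and 6.15 FPKM (p = 0.834, the authors' deposited table).

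Lamb2 (ENSMUSG00000052911), the beta chain of mature vessels and of neuromuscular synapses, stood at 4.52 FPKM in saline and 4.00 FPKM in cocaine. Its log2 fold change was -0.18 in the authors' deposited table, with p = 0.00713 and q = 0.371, so it did not pass. Lama5, an alpha chain of endothelial basement membranes, had the widest gap of the family, 3.48 FPKM against 2.23 (log2 fold change -0.64 in the authors' deposited table). Its p of 0.174 in the authors' deposited table was far larger than that of Lamb2, whose change was smaller, so size and p did not go together here. Lama2, the alpha chain of muscle and of pericyte and astrocyte basement membranes, stood at 1.41 and 1.40 FPKM (p = 0.931, the authors' deposited table). Lama5 was 2.46 times as abundant as Lama2 per length in saline and 1.60 times in cocaine.

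Lama4, the other alpha chain of endothelium, stood at 0.977 and 0.937 FPKM, with a p of 0.928 in the authors' deposited table. Lamb3, the beta chain of a laminin of skin, stood at 1.77 and 1.50 FPKM (p = 0.146, the authors' deposited table). The alpha chain of that laminin, Lama3, was lower at 0.528 and 0.536 FPKM (p = 0.941, the authors' deposited table). Lama1, an alpha chain of embryonic and pial basement membranes, stood at 0.269 and 0.245 FPKM. Lamc3, a gamma chain, stood at 0.803 and 0.967 FPKM, with a p of 0.692 in the authors' deposited table. The 7 laminin chains that reached 1 FPKM all lay below 0, by between 0.02 (Lama2) and 0.64 (Lama5) on the log2 scale, and none passed.

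Fibrillar collagens were at low levels, and the most abundant were not those of the meninges. Col11a2 and Col11a1, chains of type XI collagen, best known from cartilage, stood at 3.70 and 4.33 FPKM and at 2.40 and 2.31 FPKM in saline and cocaine. Their p-values in the authors' deposited table were 0.282 and 0.742. Col1a2 (ENSMUSG00000029661), a chain of type I collagen, stood at 2.05 and 1.52 FPKM. Its log2 fold change was -0.43 in the authors' deposited table, with p = 0.0325 and q = 0.948, so it did not pass. Its partner Col1a1, which supplies more chains to the trimer, stood at 1.01 and 0.845 FPKM (log2 fold change -0.26, p = 0.775, the authors' deposited table). Col1a2 mRNA was 2.02 times as abundant as Col1a1 per length in saline and 1.80 times in cocaine, the reverse of the order in the protein.

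Col3a1, the chain of type III collagen, stood at 0.273 and 0.221 FPKM (log2 fold change -0.30, p = 0.355, the authors' deposited table). The type V chains Col5a1 and Col5a2, which set the width of type I fibrils, stood at 0.287 and 0.273 FPKM and at 0.373 and 0.390 FPKM, and Col5a3 was not tested. Col27a1 and Col24a1 are fibrillar collagens of cartilage and bone. Col27a1 stood at 1.36 and 1.21 FPKM (p = 0.526, the authors' deposited table). Col24a1 stood at 0.603 and 0.343 FPKM, the largest log2 fold change of any tested member (-0.81 in the authors' deposited table), yet its p was 0.622. Col2a1, the main cartilage collagen, was at 0.249 and 0.278 FPKM (p = 0.844, the authors' deposited table).

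Basement membrane genes and fibrillar collagens showed little separation. Of 16 tested basement membrane genes (type IV, XV and XVIII collagens and laminins), 13 lay below 0, with a median log2 fold change of -0.10 and a range from -0.64 to 0.27. Of 10 tested fibrillar collagens, 7 lay below 0, with a median of -0.12 and a range from -0.81 to 0.23. The difference of medians was 0.02. It turned to -0.0043 when untested members were added and to -0.01 when laminins were left out, so its sign changed with the genes that entered. The share below 0 in all tested records was 59.0%, as above. At 1 FPKM or more, 9 of 9 basement membrane genes and 4 of 5 fibrillar collagens lay below 0, with medians of -0.13 and -0.17.

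The fibrillar class was also divided by type. Its 5 tested members of types I, III and V, the ones known from meninges, had a median of -0.26, and 4 lay below 0. Its 5 members of types II, XI, XXIV and XXVII had a median of -0.06, and 3 lay below 0. The means of these groups, -0.20 and -0.13, lay closer than the medians, and Col24a1, the lowest of the class, is in the second. This division was made after the values were seen and the difference was not tested. Against the types I, III and V median, that of the basement membrane genes was 0.16 higher.

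**Figure D2:**
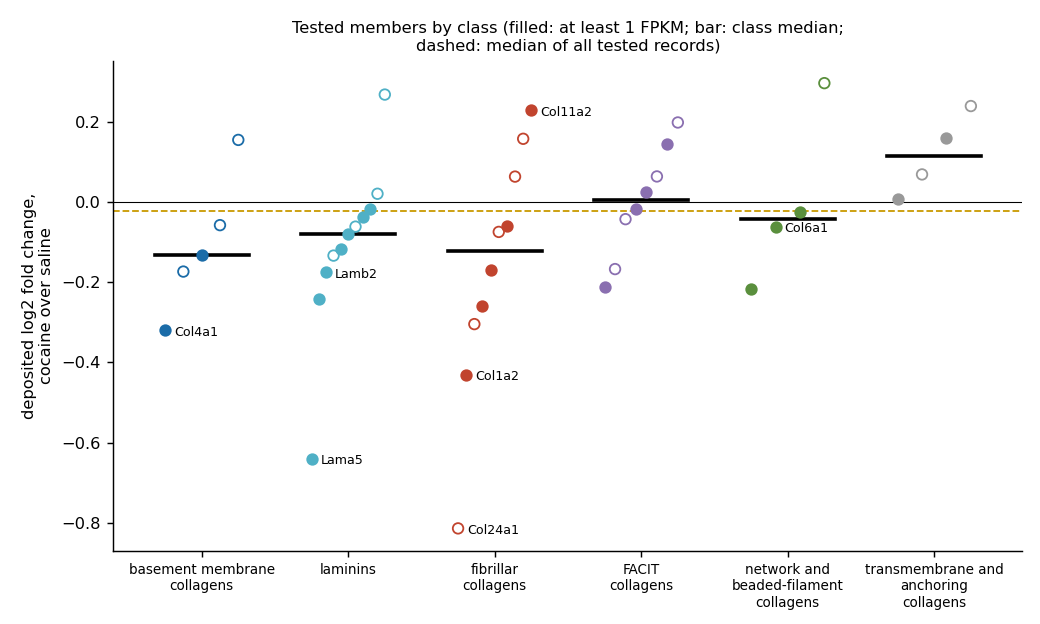
Deposited log2 fold change of each tested collagen and laminin gene, by class; filled points reached 1 FPKM, open points did not, bars are class medians and the dashed line is the median of all tested records (-0.02). Basement membrane collagens, laminins and fibrillar collagens have medians of -0.13, -0.08 and -0.12 and overlapping ranges, and the 4 tested members of the transmembrane and anchoring class lie above 0.

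Network and beaded-filament collagens held the most abundant member of all. Col6a1 (ENSMUSG00000001119) encodes a chain of type VI collagen, which forms beaded filaments from equal parts of alpha1, alpha2 and a further chain. It stood at 52.9 FPKM in saline and 50.7 FPKM in cocaine (log2 fold change -0.06, p = 0.212, the authors' deposited table). Col6a2 stood at 3.89 and 3.82 FPKM (p = 0.796, the authors' deposited table) and Col6a3 at 0.509 and 0.625 FPKM (p = 0.591, the authors' deposited table). Per length, Col6a1 mRNA was 13.6 times as abundant as Col6a2 in saline and 13.3 times in cocaine, an imbalance present in both groups. Col6a1 alone exceeded the summed level of the laminin beta chains, 20.2 FPKM in saline. Col6a4, an alternative to Col6a3, stood at 3.22 and 2.77 FPKM (p = 0.707, the authors' deposited table). Col6a6, Col8a1, Col8a2, Col10a1 and Col28a1 were not tested.

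FACIT collagens, which attach to the surface of fibrils, divided evenly, with 4 of 8 tested members below 0 and a median of 0.0045. Col9a3 and Col9a2, chains of type IX collagen, stood at 7.32 and 8.10 FPKM and at 3.15 and 3.11 FPKM (p-values 0.457 and 0.956, the authors' deposited table). The third chain, Col9a1, was at 0.0337 and 0.0762 FPKM and was not tested, so this trimer too was unevenly represented. Col16a1 stood at 4.06 and 4.13 FPKM and Col20a1 at 1.34 and 1.15 FPKM, with p-values of 0.959 and 0.690 in the authors' deposited table. Col19a1, known from interneurons and their synapses, stood at 0.828 and 0.804 FPKM. Col12a1, Col14a1 and Col22a1 lay below 1 FPKM, with log2 fold changes of -0.17, 0.06 and 0.20 in the authors' deposited table.

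The collagens that span the membrane, with the anchoring collagen Col7a1, had no tested member below 0, 0 of 4. The class median was 0.11. After removal of a trend over GC content and length, Col25a1 turned and 1 of 4 lay below 0. Col13a1, not tested, stood at 0.109 and 0.0597 FPKM (log2 fold change -0.86 in the authors' deposited table). Col25a1, a neuronal collagen found in amyloid plaques, stood at 9.70 and 9.75 FPKM (log2 fold change 0.0074, p = 0.929, the authors' deposited table). Col23a1 stood at 0.943 and 1.05 FPKM (p = 0.778, the authors' deposited table), and Col17a1, the skin hemidesmosome collagen, at 0.519 and 0.545 FPKM (p = 0.927, the authors' deposited table). Col7a1 stood at 0.491 and 0.580 FPKM (p = 0.741, the authors' deposited table). None of these 4 differences passed, and the common sign is a description only.

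The share of tested records that passed was lower at low levels, 0.0956% between 0.5 and 1 FPKM and 1.71% between 16 and 64 FPKM. Among tested records with a mean of 2 to 4 FPKM, where Col4a1 and Lama5 lie, 6 of 1657 passed, and the smallest absolute log2 fold change among them was 0.35. Between 4 and 8 FPKM, where Col4a2 and Lamb2 lie, 9 of 2255 passed, the smallest at 0.14. Between 1 and 2 FPKM, where Col1a2 lies, 2 of 1184 passed, the smallest at 0.36. Between 0.5 and 1 FPKM only 1 of 1046 passed, at 1.51. Lama5 (-0.64), Lamb2 (-0.18) and Col1a2 (-0.43) each exceeded in size the smallest passing change of their range, yet did not pass. Size and level alone therefore did not set the calls. Of the 42 tested collagens and laminins, 17 lay within 0.1 of 0, closer than any of the records that passed in the ranges from 0.5 to 8 FPKM. A q over 0.05 thus does not show that a gene was the same in both groups.

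**Figure D3:**
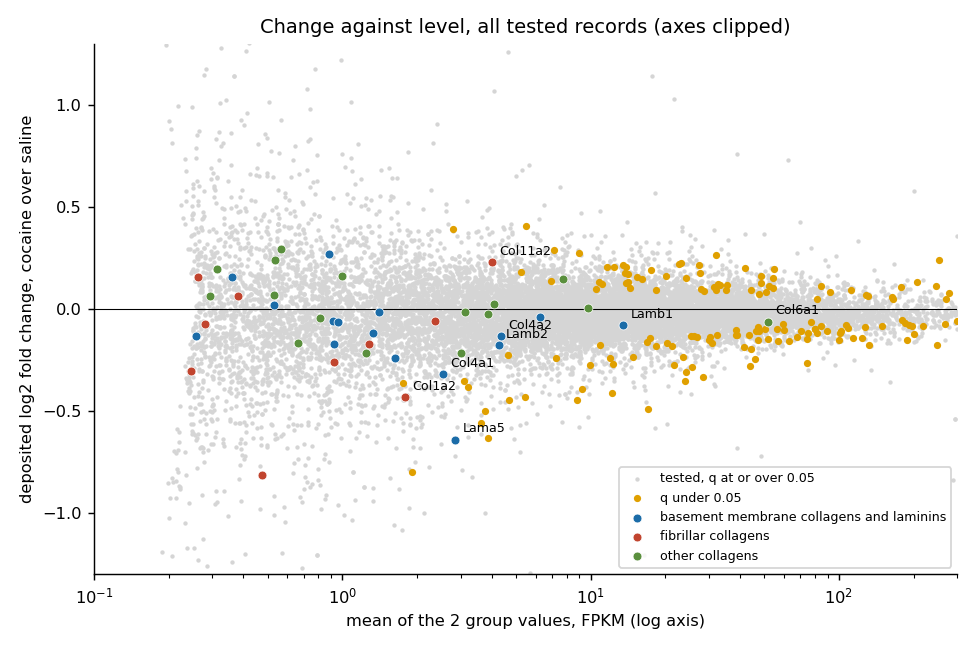
Deposited log2 fold change of cocaine over saline against the mean of both group values (FPKM, log axis) for all tested records; grey points did not pass, orange points had a q under 0.05, and coloured points are collagens and laminins. Col4a1, Lama5 and Col1a2 lie at the lower edge of the cloud near 2 FPKM, beside a few orange points, while Col6a1 and Lamb1 lie close to 0.

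Other basement membrane proteins gave 0 calls among 14 tested, with 11 below 0 and a median of -0.10, beside -0.02 for all tested records. At 1 FPKM or more 6 of 9 lay below 0 (66.7%). Over all tested records 1.23% were called and 59.0% lay below 0. At that rate of calls, short lists often hold none, so 0 calls here and in the lists that follow says little about them. The 3 with the smallest p were Nid1, the nidogen that links laminin to type IV collagen (0.869 and 0.750 FPKM), Sparc, a collagen-binding protein (113 and 108 FPKM), and Fbln1, a fibulin (3.18 and 2.86 FPKM). Their p-values in the authors' deposited table were 0.156, 0.261 and 0.290.

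Enzymes that make and fold collagen gave 0 calls among 25 tested, with 16 below 0 (64%) and a median of -0.02. P4hb, a subunit of the prolyl hydroxylase that stabilises the triple helix, stood at 62.6 and 55.2 FPKM (log2 fold change -0.18, p = 0.0562, the authors' deposited table). Ppib, a folding isomerase, stood at 35.8 and 33.7 FPKM, and Glt25d1, which adds galactose to collagen, at 17.3 and 16.6 FPKM (p-values 0.182 and 0.203, the authors' deposited table). These enzymes also serve other secreted proteins.

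Receptors for collagen and laminin gave 0 calls among 16 tested, with 9 below 0 (56%) and a median of -0.05. Bcam, a receptor for laminin alpha5, stood at 4.54 and 3.38 FPKM (log2 fold change -0.43, p = 0.0708, the authors' deposited table). Its ligand chain Lama5 stood at -0.64 on that scale in the authors' deposited table, and neither passed. Mag, a myelin glycoprotein, stood at 92.6 and 88.4 FPKM and Ddr1, a collagen receptor kinase, at 24.7 and 22.5 FPKM (p-values 0.0747 and 0.0795, the authors' deposited table). Proteases and their inhibitors gave 0 calls among 15 tested, with 9 below 0 (60%) and a median of -0.06. Timp2, an inhibitor of matrix proteases, stood at 108 and 99.5 FPKM (p = 0.00614, q = 0.331 in the authors' deposited table). The membrane-bound proteases Mmp17 and Mmp14 stood at 49.2 and 47.3 FPKM and at 3.67 and 3.19 FPKM (p-values 0.0215 and 0.0743, the authors' deposited table).

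Most endothelial and mural markers had lower group values after cocaine, where 59.0% of all tested records lay below 0. The meningeal and fibroblast markers lay nearer that share, and the choroid plexus markers lay on both sides of 0. Of 15 endothelial markers, 14 lay below 0, with a median of -0.31. Their summed level was 93.4 FPKM in saline and 80.5 in cocaine. Cldn5, a tight junction protein, was the only one of them to pass, and it fell from 10.2 to 7.46 FPKM (log2 fold change -0.45, q = 0.00123 in the authors' deposited table). Cdh5, the endothelial cadherin, stood at 1.45 and 1.12 FPKM and Tie1, an endothelial receptor, at 1.57 and 1.20 FPKM (p-values 0.0111 and 0.0397, the authors' deposited table). Col4a1 and Col4a2 had log2 fold changes of -0.32 and -0.13. The medians of the endothelial, mural, and meningeal and fibroblast lists were -0.31, -0.12 and -0.11. Any link between the 2 chains and these lists was not tested.

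Of 12 tested mural markers, which label pericytes and smooth muscle, 12 lay below 0 and 0 passed, with a median of -0.12 and a summed level over all 13 listed genes of 59.3 and 53.6 FPKM. The 3 with the smallest p were Pdgfrb, the receptor that recruits pericytes (4.41 and 3.95 FPKM), Notch3 (3.10 and 2.84 FPKM), and Anpep, a membrane peptidase (1.59 and 0.337 FPKM). Their p-values in the authors' deposited table were 0.0242, 0.0568 and 0.182. Of 13 tested meningeal and fibroblast markers, 9 lay below 0 (69.2%) and 0 passed, with a median of -0.11. At 1 FPKM or more 4 of 7 lay below 0 (57.1%), against 59.2% of tested records at that level. Their summed level over 18 listed genes was 30.0 and 27.2 FPKM. None of the endothelial, mural, meningeal or fibroblast markers was listed at 0 in either group. Igf2, a growth factor made by meninges, stood at 9.25 and 6.84 FPKM, and Islr at 1.91 and 1.41 FPKM (p-values 0.143 and 0.149, the authors' deposited table). Dcn, a fibril-binding proteoglycan of fibroblasts, stood at 1.10 and 1.46 FPKM (p = 0.257, the authors' deposited table), opposite in sign to Col1a2.

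Choroid plexus, a vascular tissue with a stroma and basement membranes of its own, gave markers on both sides of 0. Of its 8 markers 6 were tested, 4 lay above 0 and 1 passed, Ttr, whose values are given above. The list had a median of 0.81 and a summed level of 9.41 FPKM in saline and 19.8 FPKM in cocaine, and most of that gap was Ttr. Kcnj13, a potassium channel, stood at 0.0658 and 0.581 FPKM and Folr1, a folate receptor, at 0.234 and 0.618 FPKM (p-values 0.0890 and 0.490, the authors' deposited table). Clic6, the most abundant of the list in saline, stood at 6.42 and 5.65 FPKM (log2 fold change -0.18, p = 0.522, the authors' deposited table). The 3 markers that reached 1 FPKM were thus not alike, with Clic6 and Kl below 0 and Ttr above, and their median was -0.04. None of the 8 was listed at 0. The part of a difference in vessel, meningeal or choroid plexus tissue in the values of the collagens and laminins was not tested.

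**Figure D4:**
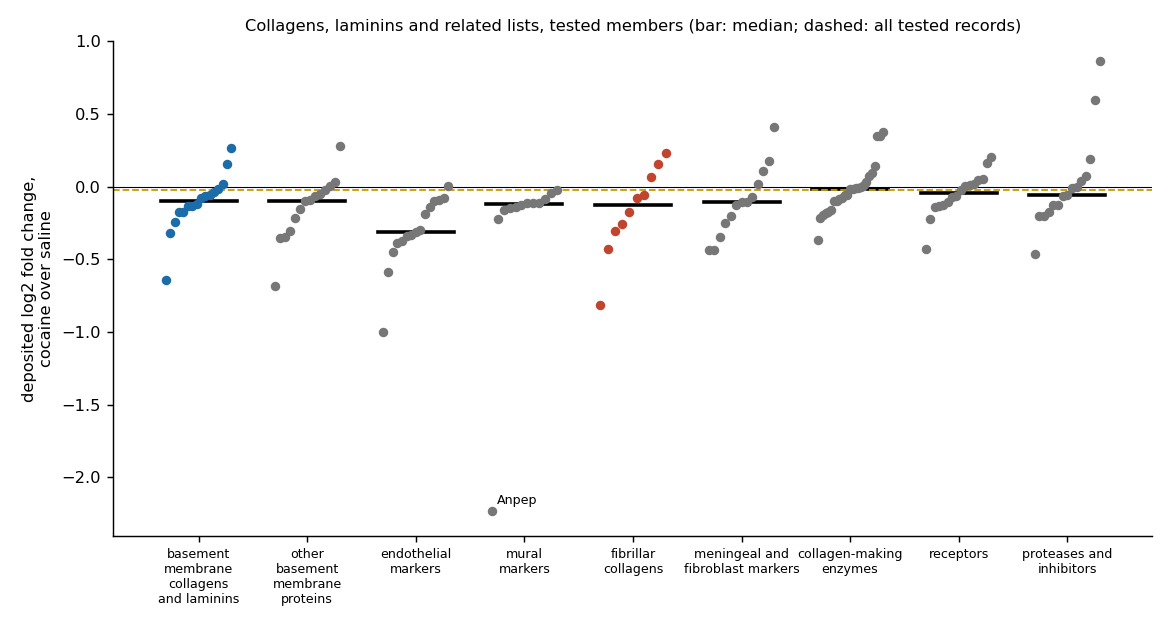
Deposited log2 fold change of tested basement membrane genes (blue), fibrillar collagens (red) and the related gene lists (grey); bars are medians and the dashed line is the median of all tested records. Endothelial markers have the lowest median (-0.31), and the lists of enzymes, receptors and proteases have medians between -0.06 and -0.02. The choroid plexus list (median 0.81) and the medium spiny neuron list are not drawn.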

How the data were processed

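RNA from nucleus accumbens was sequenced in 3 cocaine and 3 saline libraries, grouped by the treatment label, although the saline libraries carry the cocaine text in their protocol field. Per the submitters' processing notes, TopHat2 2.0.6, Cufflinks 2.0.2 and the build NCBIM37 were used; their settings and annotation were not given in these sources. Per the file headers, the deposited table compares Sal with Coc. The authors' group values were taken as FPKM, the unit of Cufflinks gene tables, although the deposited file does not state it. The log2 fold change, p-value and q-value were deposited by the authors. Recomputed log2 fold changes of the 53 genes lay within 1.00e-05 of the deposited ones. Called means a deposited q under 0.05 among 14959 records marked as tested.

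Classes, lists and the naming rule (genes of at least 1 FPKM, p under 0.05, or described chains; per related list, called genes and the 3 smallest p-values; choroid plexus genes were chosen after their values were seen) were chosen with earlier results of these data known. Of the 29 collagen-making enzymes listed, 28 were in the table. GC content and length, for a trend over 10 by 10 cells, came from the longest GENCODE M21 transcript, found for all 53 genes. One laminin chain enters the counts and medians and is not reported here by itself. Alternatives were an expression minimum, pseudocounts of 1 and 0.1, centring, trend removal, other classes and other adjustments. Scripts (Python 3.11.15, pandas 2.3.3) were tested on simulated data.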

Additional observations from a re-analysis of the deposited data

How the results depend on the processing

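With values per group only, replicates could not be left out in turn. No paired analysis was possible because the table holds no value per library. No gene passed the deposited q under 0.05, 1 passed at a deposited q under 0.1, 1 with Benjamini-Hochberg adjustment over all tested records, 1 with that adjustment over records of at least 1 FPKM, and 3 at an unadjusted p under 0.05 in the authors' deposited table. The count below 0 was 27 of 42 as deposited and with either pseudocount, 25 with centring and 26 with the trend removed. It was 18 of 23 at 1 FPKM or more and 33 of 53 with untested members added. Centring divides all tested records evenly around 0, and trend removal left their median at -0.00056. Neither count can therefore be set against the 59.0% given above. The basement membrane and fibrillar medians, both below 0, kept their sign in every alternative run. With a pseudocount of 1 both shrank, to -0.050 for the basement membrane genes and -0.051 for the fibrillar collagens, and the fibrillar median was -0.074 with untested members added and -0.26 for types I, III and V alone, a choice made after seeing the data. The difference of medians, basement membrane minus fibrillar, was 0.02 and not stable. It was 0.038 at 1 FPKM or more, 0.00087 with a pseudocount of 1, 0.040 with the GC and length trend removed, 0.057 between means, 0.16 against types I, III and V, and 0.044 without Lama5 (also chosen after seeing the data). It turned to -0.0043 with untested members added and to -0.010 for basement membrane collagens without laminins. Of 23 genes of at least 1 FPKM, 20 kept their sign with the trend removed, 21 with centring and 23 with either pseudocount. Low levels and unknown depth limit all of these values.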
